A study of Mus musculus with 12 samples.

Results

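Immediate early genes were examined in mouse ear skin after intradermal injection of PBS, IL-17A, IL-36γ or IL-17A + IL-36γ. The 10 genes were Fos, Fosb, Jun, Junb, Egr1, Dusp1, Zfp36, Ier2, Atf3 and Nr4a1, of 50684 genes in the count table. They were matched by gene symbol to their Ensembl identifiers, and all 10 were found. They were chosen because in these same libraries their levels lay above PBS after each cytokine alone and lay lower after both, so their values against PBS and after both cytokines are given as a description without a test. The contrast of IL-36γ with IL-17A was not part of this choice and was tested. Each group consisted of 3 sequenced female C57BL/6 mice of 8 weeks, of 5 mice treated per group, and ears were collected on day 4 of consecutive treatment. The dose was 1 µg of each cytokine in 5 µL of PBS, also in the combination, and the control mice received PBS alone. No group carried a transgene or a deletion, and the agents were recombinant murine cytokines placed directly into the ear pinna.

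Immediate early genes are transcribed within minutes of a stimulus without new protein synthesis, and their mRNAs are usually short-lived. Kinases of the ERK, p38 and JNK pathways activate factors that already sit at their promoters, such as SRF with its ternary complex partners and CREB. Many of the products are transcription factors, and others are inhibitors that end the response. In skin they are known to react to cytokines, growth factors, wounding and ultraviolet light.

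Total RNA of the ear was sequenced, and counts per library ranged from 25293468 to 34759293. Levels are given as CPM, in which every library is brought to the same size, with the TMM correction for library composition. All 10 genes passed the filter on low counts that left 19408 genes, and their counts lay between 166 and 7417 per library. P-values measure the spread between the mice. Keratinocyte markers, which define the epidermis, summed to 16200 to 22300 CPM after PBS and 33800 to 40000 CPM after both, and fibroblast markers to 8730 to 10700 and 6540 to 8030 CPM. Markers of endothelium, T cells, mast cells, cartilage and Schwann cells were detected in every group, and all 6 adipocyte markers fell after both, with sums of 342 to 483 CPM after PBS and 97.0 to 216 CPM after both. Neutrophil markers summed to 13.3 to 91.0 CPM after PBS, 379 to 873 CPM after IL-17A, 2280 to 4830 CPM after IL-36γ and 7610 to 10000 CPM after both. This list includes S100a8 and S100a9, which the paper also attributes to macrophages and keratinocytes, so the sum is not a measure of neutrophils alone. In such whole tissue, fewer cells of a type and less RNA per cell cannot be told apart.

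The AP-1 factors are dimers, among them those of a Fos and a Jun protein, and Fos is their best known inducible subunit. Values are given in the order of replicates 1, 2 and 3, which are separate mice. Fos (chr12:85473890-85477273, plus strand, GRCm38) had 19.9, 27.5 and 26.2 CPM in PBS mice, 56.6, 247 and 222 CPM in IL-17A mice, 164, 142 and 151 CPM in IL-36γ mice, and 31.6, 92.9 and 131 CPM in mice given both. Every library of each cytokine group lay above every PBS library, and the libraries of the combination lay below those of IL-36γ but overlapped with those of IL-17A. The mean was 7.13 times that of PBS with IL-17A, 6.21 times with IL-36γ and 3.47 times with both. Of the 10 genes, Fos had the greatest fold change in each of these contrasts, with log2 values of 2.83 (SE 0.53), 2.64 (SE 0.53) and 1.80 (SE 0.52).

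Fosb, a Fos paralog that also dimerizes with Jun proteins, lies on chr7:19302696-19310051 (minus strand). Its level was 6.59, 24.7 and 34.4 CPM in PBS mice, 16.6, 70.4 and 63.5 CPM in IL-17A mice, 44.3, 35.9 and 40.0 CPM in IL-36γ mice, and 6.48, 29.6 and 41.4 CPM in mice given both. The PBS mice themselves spread widely, with a coefficient of variation (CV, the SD as a percentage of the mean) of 64.5%, and only the IL-36γ libraries were separated from PBS. Against PBS, the log2 value was 1.20 (SE 0.66) for IL-17A, 0.88 (SE 0.66) for IL-36γ and 0.25 (SE 0.66) for the combination.

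Jun (chr4:95049034-95052222, minus strand) encodes the main partner of Fos and showed the smallest differences after IL-17A or IL-36γ alone. It had 52.5, 56.9 and 55.6 CPM in PBS mice, 57.3, 86.0 and 81.9 CPM in IL-17A mice, 82.9, 75.7 and 66.8 CPM in IL-36γ mice, and 70.9, 53.9 and 71.1 CPM in mice given both. Replicate 1 of IL-17A lay just above the highest PBS library, and 1 library of the combination lay within the PBS range. On the log2 scale, IL-17A differed from PBS by 0.45 (SE 0.15), IL-36γ by 0.45 (SE 0.15) and the combination by 0.25 (SE 0.15).

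Junb (chr8:84974484-84978718, minus strand), a Jun family member that can restrain Jun in keratinocytes, had the highest level per length of the 10 genes in every group, with a mean of 41.9 CPM per kb of exon after PBS. Its level was 116, 87.7 and 85.7 CPM in PBS mice, 164, 241 and 208 CPM in IL-17A mice, 222, 218 and 182 CPM in IL-36γ mice, and 173, 168 and 211 CPM in mice given both. All 3 cytokine groups were separated from PBS and overlapped with each other. The log2 fold change of 0.93 (SE 0.16) after both stayed close to the 1.09 (SE 0.16) after IL-17A and the 1.11 (SE 0.16) after IL-36γ.

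Atf3 (chr1:191170296-191218039, minus strand) encodes a stress-induced factor of the ATF and CREB family that acts mainly as a repressor. It had 8.17, 19.4 and 24.0 CPM in PBS mice, 19.3, 70.0 and 56.8 CPM in IL-17A mice, 56.1, 43.9 and 48.1 CPM in IL-36γ mice, and 17.6, 34.4 and 49.4 CPM in mice given both. As for Fosb, the IL-36γ libraries alone were separated from PBS. Fold changes from PBS were 1.51 (SE 0.48) for IL-17A, 1.52 (SE 0.48) for IL-36γ and 0.98 (SE 0.48) for the combination in log2.

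Egr1 (chr18:34859823-34864984, plus strand), a zinc finger factor that ERK signaling induces through SRF, was the only one of the 10 genes whose IL-17A libraries lay above those of every other group. It had 16.2, 16.8 and 15.5 CPM in PBS mice, 35.2, 74.1 and 44.4 CPM in IL-17A mice, 29.3, 24.8 and 31.2 CPM in IL-36γ mice, and 17.4, 23.8 and 27.7 CPM in mice given both. Replicate 2 of IL-17A was the highest library, and the 3 PBS libraries were close together with a CV of 3.86%. Against PBS, the log2 value was 1.66 (SE 0.24) for IL-17A, 0.81 (SE 0.24) for IL-36γ and 0.51 (SE 0.24) for the combination.

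Nr4a1 (chr15:101254269-101274795, plus strand) encodes an orphan nuclear receptor induced by many stimuli. Its level was 6.34, 18 and 18.1 CPM in PBS mice, 14.6, 50.2 and 33.1 CPM in IL-17A mice, 20.5, 18.6 and 24.2 CPM in IL-36γ mice, and 7.69, 18 and 20.2 CPM in mice given both. The combination overlapped with PBS, and its mean was 1.08 times that of PBS. On the log2 scale, IL-17A differed from PBS by 1.21 (SE 0.47), IL-36γ by 0.58 (SE 0.47) and the combination by 0.12 (SE 0.47).

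Ier2 (chr8:84661331-84662852, minus strand) encodes a nuclear protein of the immediate early response. It had 31.3, 25.7 and 27.4 CPM in PBS mice, 39.9, 58.7 and 53.6 CPM in IL-17A mice, 51.2, 46.4 and 43.0 CPM in IL-36γ mice, and 35.3, 37.8 and 41.2 CPM in mice given both. Each cytokine group was separated from PBS, and the combination also lay below IL-36γ without overlap. Fold changes from PBS were 0.85 (SE 0.13) for IL-17A, 0.74 (SE 0.13) for IL-36γ and 0.44 (SE 0.13) for the combination in log2.

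Dusp1 and Zfp36 end the response in which they are induced. Dusp1 (chr17:26505590-26562128, minus strand) is a phosphatase that inactivates p38, JNK and ERK. It had 42.9, 42.5 and 35.1 CPM in PBS mice, 85.9, 145 and 117 CPM in IL-17A mice, 99.0, 89.5 and 92.9 CPM in IL-36γ mice, and 45.9, 63.5 and 84.4 CPM in mice given both. It was the only one of the 10 genes whose libraries of the combination lay below all libraries of IL-17A and all libraries of IL-36γ, and they still lay above all PBS libraries. Against PBS, the log2 value was 1.53 (SE 0.21) for IL-17A, 1.22 (SE 0.21) for IL-36γ and 0.69 (SE 0.21) for the combination.

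Zfp36 (chr7:28376784-28380253, minus strand) encodes tristetraprolin, which binds AU-rich elements and destabilizes mRNAs of inflammatory cytokines. It had 29.3, 28.9 and 25.7 CPM in PBS mice, 35.9, 62.7 and 54.4 CPM in IL-17A mice, 68.2, 60.5 and 61.6 CPM in IL-36γ mice, and 42.6, 47.8 and 59.5 CPM in mice given both. The combination lay below IL-36γ without overlap and within the range of IL-17A. On the log2 scale, IL-17A differed from PBS by 0.87 (SE 0.17), IL-36γ by 1.18 (SE 0.17) and the combination by 0.84 (SE 0.17). The strand setting of the read counting is not given in the sources used here, and exons of Jun, Junb, Dusp1 and Zfp36 overlap opposite-strand exons of Junos, Prdx2, Ergic1 and Gm44710 over 232, 173, 11 and 125 bases.

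**Figure D1:**
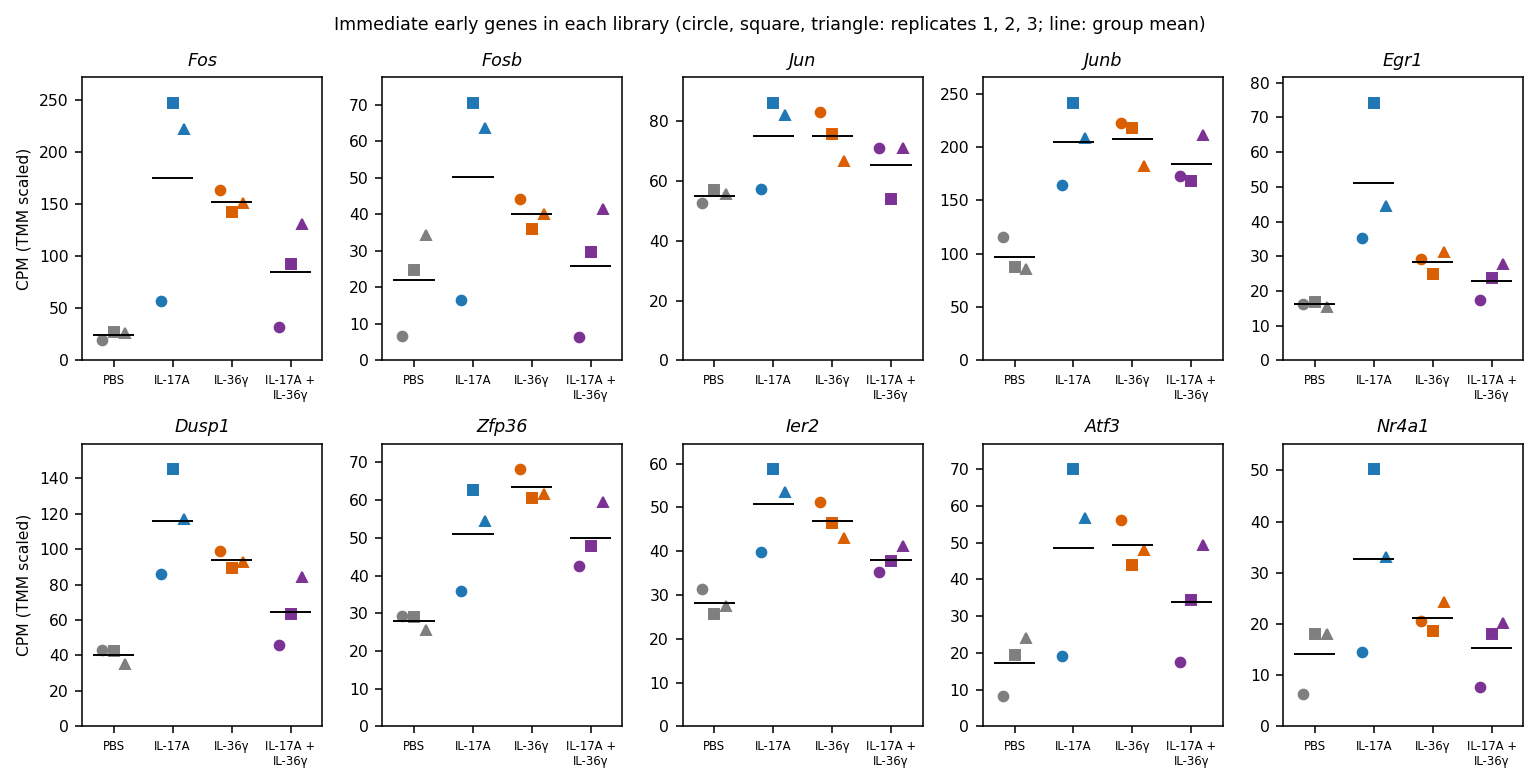
Level of each of the 10 immediate early genes (y axis, CPM after TMM scaling, from 0) in the 12 libraries of the 4 groups (x axis), with a symbol per replicate and a line at the group mean. For Fos, all 9 cytokine libraries sit above the PBS libraries, which reach 27.5 CPM, and the circles of IL-17A and of the combination, replicate 1, sit lowest in their groups at 56.6 and 31.6 CPM.

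Promoters are shown because the 10 genes moved together across libraries and because cyclic AMP response elements are a textbook feature of such genes. RefSeq promoter windows on GRCm38.p6 were matched for Fos, Fosb, Jun, Junb, Dusp1, Zfp36, Atf3 and Nr4a1, that is 8 of the 10. The element core TGACG, searched on both strands, occurred in the 250 bases before the start of 6 of these 8 genes (Fos, Fosb, Junb, Dusp1, Atf3 and Nr4a1) and in 17.8% of 32851 promoters. The full palindrome TGACGTCA, which contains the core on both strands, was found in Dusp1 alone and in 1.55% of all promoters. Up to 150 bases before the start are given 5′ to 3′ on the gene's strand, with the core in capitals, and the Dusp1 window ends where an annotated exon of another transcript begins.
Fos, chr12:85473740-85473889, plus strand: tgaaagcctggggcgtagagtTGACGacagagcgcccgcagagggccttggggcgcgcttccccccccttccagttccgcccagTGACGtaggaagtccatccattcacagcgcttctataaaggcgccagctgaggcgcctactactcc
Junb, chr8:84978749-84978898, minus strand: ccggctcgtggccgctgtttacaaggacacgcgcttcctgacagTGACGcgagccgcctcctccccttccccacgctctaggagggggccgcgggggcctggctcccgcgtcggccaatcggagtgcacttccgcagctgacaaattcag
Dusp1, chr17:26508520-26508622, minus strand: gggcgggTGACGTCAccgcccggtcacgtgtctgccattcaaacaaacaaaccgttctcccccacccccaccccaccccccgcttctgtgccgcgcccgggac
Nr4a1, chr15:101266696-101266845, plus strand: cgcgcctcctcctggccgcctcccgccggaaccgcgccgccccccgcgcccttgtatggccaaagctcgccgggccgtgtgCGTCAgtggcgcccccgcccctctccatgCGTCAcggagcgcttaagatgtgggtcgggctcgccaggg

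In the Fos window the core lay 129 to 125 and 66 to 62 bases before the start, and the letters TATAAA lay 33 to 28 bases before it. TATAAA was present in 12.4% of all promoters and in no other of the 8. The palindrome of Dusp1 lay 143 to 136 bases before the start. The AP-1 letters TGANTCA were found in 0 of the 8 windows and in 6.75% of all promoters. The EGR letters GCGNGGGCG were found in Fosb, Zfp36 and Nr4a1 and in 4.7% of all promoters, and the CArG box of SRF in Zfp36 and in 1.47%. A match describes the letters of this window alone.

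As a group, the 10 genes lay above PBS in each contrast. They were chosen for this course, so the distance of their median from that of all tested genes follows from the choice and is given as a description. After IL-17A the median log2 fold change was 1.20, with values from 0.45 for Jun to 2.83 for Fos, against 0.04 over all tested genes. After IL-36γ it was 0.99 (all genes -0.015) and after both it was 0.60 (all genes -0.03). The order of the group means was the same at its lower end for all 10 genes, with PBS lowest and the combination next, which is what the choice of the genes asked for. At the upper end IL-17A was highest for 6 genes and IL-36γ for 4 (Jun, Junb, Zfp36 and Atf3). After both, the value of Fosb turned to -0.18 without replicate 1 of PBS and to -0.26 without replicate 3 of the combination. That of Nr4a1 turned to -0.23 without replicate 1 of PBS, and to -0.03 and -0.13 without replicates 2 and 3 of the combination. The other 8 genes stayed above PBS in each contrast with any 1 library left out. The 3 contrasts share the PBS libraries and are not independent of each other.

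Counts past the thresholds (edgeR adjusted p below 0.05, and a log2 fold change of more than 1 in either direction) are given with the share of all tested genes, and nothing is read from them for genes chosen on these contrasts. After IL-17A, 4 of the 10 genes (Fos, Junb, Egr1 and Dusp1) were past them, where 1.07% of all genes were higher and 1.03% lower. After IL-36γ, 5 genes (Fos, Junb, Dusp1, Zfp36 and Atf3) were past them, with 5.11% of all genes higher and 1.98% lower. After both, Fos alone was past them, with 7.35% higher and 6.06% lower. The count after IL-17A was 0 without replicate 3 of PBS and also 0 in a fit of the 2 groups alone. The count after both was 2 without replicate 1 of PBS and 0 without replicate 3 of the combination.

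The libraries of the groups were also compared for overlap. All 3 libraries of IL-17A lay above all 3 of PBS for 7 of the 10 genes, the exceptions being Fosb, Atf3 and Nr4a1, and for 19.6% of all tested genes. The libraries of IL-36γ lay above those of PBS for all 10 genes, and for 22.4% of all genes. Those of the combination lay above PBS for 6 genes (Fos, Junb, Egr1, Dusp1, Zfp36 and Ier2), and for 27% of all genes.

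**Figure D2:**
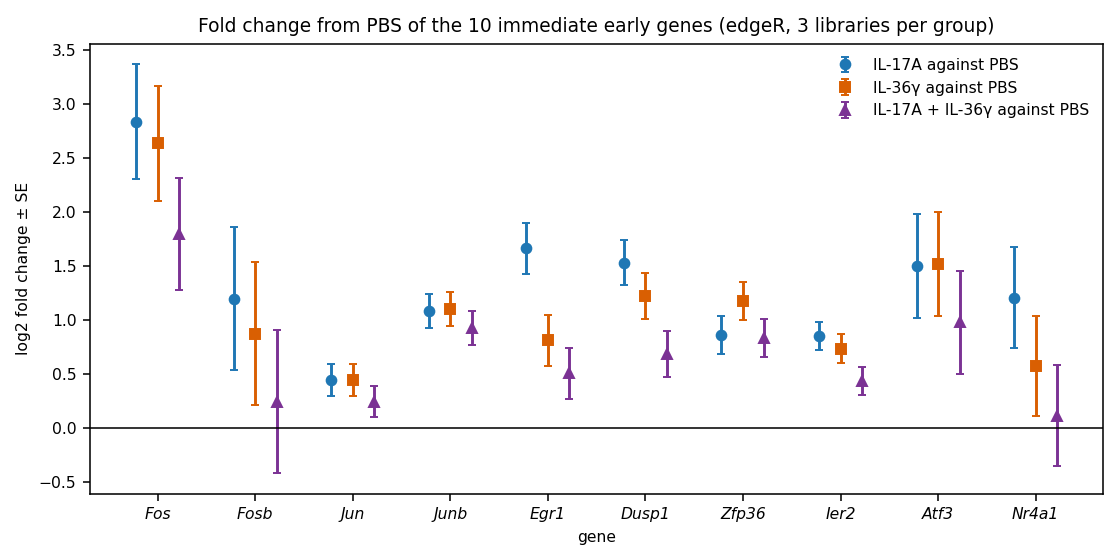
Log2 fold change from PBS (y axis, with bars of 1 SE from the edgeR fit of 12 libraries) of the 10 genes (x axis) after IL-17A, IL-36γ and both. Fos stands highest with 2.83, 2.64 and 1.80, and for each gene the value of the combination is the lowest of the 3.

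The combination was next compared with each cytokine alone. The choice of the genes used these contrasts too, so nothing is read from the counts past the thresholds. Against IL-17A the 10 genes had a median log2 fold change of -0.69 (all genes 0.00), from -1.16 for Egr1 (SE 0.23) to -0.03 for Zfp36 (SE 0.17). Zfp36 turned to between 0.02 and 0.17 without replicate 2 or 3 of IL-17A or replicate 1 or 2 of the combination, and Junb to 0.00 without replicate 2 of IL-17A. Egr1 alone was past the thresholds, where 4.46% of all genes were higher and 4.49% lower. Egr1 and Dusp1 were the 2 genes whose combination libraries all lay below those of IL-17A, as 25.4% of all genes did. The count past the thresholds depended on single libraries, and was 0 without replicate 2 of IL-17A or replicate 1 of the combination, 4 without replicate 1 of IL-17A, and 2 without replicate 1 of PBS or replicate 3 of the combination.

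Against IL-36γ the differences were smaller, with a median of -0.40 (all genes 0.00), from -0.84 for Fos (SE 0.50) to -0.17 for Junb (SE 0.15). In this contrast 0 of the 10 genes were past the thresholds by edgeR and 0 by DESeq2, and the unadjusted p-value of edgeR was below 0.05 for 2 genes. Of all genes, 0% were higher and 0.0103% lower. The choice of the genes used this contrast, so these counts are a description and not a test. The combination libraries of Fos, Dusp1, Zfp36 and Ier2 lay below all IL-36γ libraries, as for 11.3% of all genes.

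The interaction compares what IL-17A did on top of IL-36γ with what it did on top of PBS, as a difference of log2 fold changes, and a value of 0 means that the fold changes multiply. The choice of the genes bears on it as well, so it is given as a description. It was below 0 for all 10 genes, with a median of -1.75 against -0.07 over all genes. The value was -3.67 (SE 0.72) for Fos, about -2 for Dusp1 (-2.07, SE 0.29), Atf3 (-2.05, SE 0.67) and Egr1 (-1.97, SE 0.33), and -0.65 (SE 0.21) for Jun, the value closest to 0. At an adjusted p-value below 0.05 there were 5 of the 10 genes (Fos, Junb, Egr1, Dusp1 and Ier2), where 0.129% of all genes were above 0 and 0.423% below. This count was 0 without any one of replicates 2 and 3 of PBS, replicate 2 of IL-17A, replicates 1 and 3 of IL-36γ, or replicates 1 and 2 of the combination, and 1 without replicate 3 of IL-17A. It was also 0 when libraries were scaled by their size alone, and it was 8 with the replicate number as a block, with Zfp36, Atf3 and Nr4a1 in addition.

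The contrast of IL-36γ with IL-17A is the test that the choice of the genes did not use. Of the 10 genes, Egr1 had the one adjusted p-value below 0.05, and this call was not stable. Its level was lower after IL-36γ than after IL-17A, with 28.4 ± 3.31 against 51.2 ± 20.4 CPM (SD, n = 3), a log2 fold change of -0.85 (SE 0.23, edgeR adjusted p = 0.0452) that lies within the fold change threshold. Its adjusted p was below 0.05 in 9 of 20 alternatives and above it in the other 11, with a range from 0.00931 to 0.174. The highest values were 0.174 without replicate 2 of IL-17A and 0.17 without replicate 2 of IL-36γ. By both thresholds 0 of the 10 genes were called by edgeR and 0 by DESeq2, and Egr1 was also the only one with an unadjusted p-value below 0.05. Of all genes, 1.25% were called higher and 0.366% lower.

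For the other 9 genes a difference between IL-36γ and IL-17A was not detected with 3 mice per group. Junb (0.02, SE 0.15), Jun (0.00, SE 0.15) and Ier2 (-0.11, SE 0.13) had log2 values near 0 with small errors. Zfp36 had 0.31 (SE 0.17, edgeR adjusted p = 0.284) and Dusp1 -0.31 (SE 0.21, adjusted p = 0.382). Wide errors remained for Fos (-0.20, SE 0.49), Atf3 (0.02, SE 0.47), Fosb (-0.32, SE 0.65) and Nr4a1 (-0.63, SE 0.46).

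Within the IL-17A group and the combination, the 10 genes spread among the mice in a similar way. Replicate 1 of IL-17A was the lowest of its group for all 10 genes, whereas it was lowest for 37.5% of all tested genes. Replicate 1 of the combination was lowest for 8 genes, all except Jun and Junb (37.1% of all genes). In the PBS group replicate 1 was lowest for 5 genes (Fos, Fosb, Jun, Atf3 and Nr4a1), a share near the 40.8% of all genes. Fosb, Atf3 and Nr4a1 had 6.59, 8.17 and 6.34 CPM there, against at least 24.7, 19.4 and 18 CPM in the other PBS libraries. Junb, Dusp1, Zfp36 and Ier2 were highest there. Over the 10 genes, the deviations of this mouse had r = 0.833 with those of replicate 1 of IL-17A and r = 0.825 with those of the combination. This r compares which genes lay lower than others within a mouse. It leaves out the mean deviation of each mouse, so it does not say that all 10 genes were low in this PBS mouse. In the IL-36γ group replicate 2 was lowest for 7 genes (34.6% of all genes), replicate 3 for Jun, Junb and Ier2 (33.6%) and replicate 1 for 0 (31.8%). The labels give the replicate numbers without saying that a number marks a shared litter or day.

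The IL-36γ mice had the lowest median CV of the 4 groups in these genes. The CV of the 10 genes ranged from 5.13% to 13.3% after IL-36γ, with a median of 10.5%, beside a median of 7.17% for the 10594 genes with a mean of at least 10 CPM. After IL-17A it ranged from 18.9% to 59.0%, and all 10 genes lay above the 6.27% median of those genes. After both it ranged from 7.8% to 68.8%, again with all 10 genes above the median of 7.14%. After PBS, Egr1 (3.86%) and Jun (4.06%) varied little while Fosb, Atf3 and Nr4a1 had CVs of 64.5%, 47.3% and 47.8%.

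Without replicate 1 of all 4 groups, an alternative chosen after the data were seen, the median log2 fold change of the 10 genes against PBS was 1.29 with IL-17A, 0.94 with IL-36γ and 0.81 with the combination. All 10 genes were above PBS in each. The counts past the thresholds were then 9, 5 and 2. Against IL-36γ the combination had a median of -0.17 in place of -0.40, with all 10 genes still below 0, and the interaction a median of -1.41. Fos had an interaction of -3.51 without these libraries.

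Some measures of tissue composition differed among libraries and groups. The 10 skeletal muscle markers summed to 441 CPM in replicate 1 of PBS against 3431 and 2982 CPM in the other PBS libraries, and to 427, 262 and 1328 CPM in replicates 1, 2 and 3 of the combination. After IL-17A the sums were 2069, 2710 and 2998 CPM, lowest in replicate 1. No marker of these 10 was without counts over the 12 libraries. Counts of mitochondrial genes made up 5.66% of replicate 1 of IL-17A and 4.55% and 4.30% of the other IL-17A libraries. In the combination the order was otherwise, with 3.11%, 3.48% and 3.16% in replicates 1, 2 and 3. Of 5 red blood cell markers, all rose after IL-17A and all were lower after both than after IL-17A. Their sums in replicates 1, 2 and 3 were 83.6, 104 and 61.5 CPM after PBS and 130, 331 and 216 CPM after IL-17A. They were 147, 82.0 and 104 CPM after IL-36γ and 63.6, 80.3 and 120 CPM after both. Within the IL-17A group and the combination, these sums ordered the mice as the mean z-score of the 10 genes did. Within the PBS and IL-36γ groups the 2 orders differed. Of 7 macrophage markers, 3 (Adgre1, Csf1r and Lyz2) had an interaction below 0 at an adjusted p-value below 0.05, with a median of -0.99 for the list. The part of these measures in the values of the immediate early genes was not tested.

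**Figure D3:**
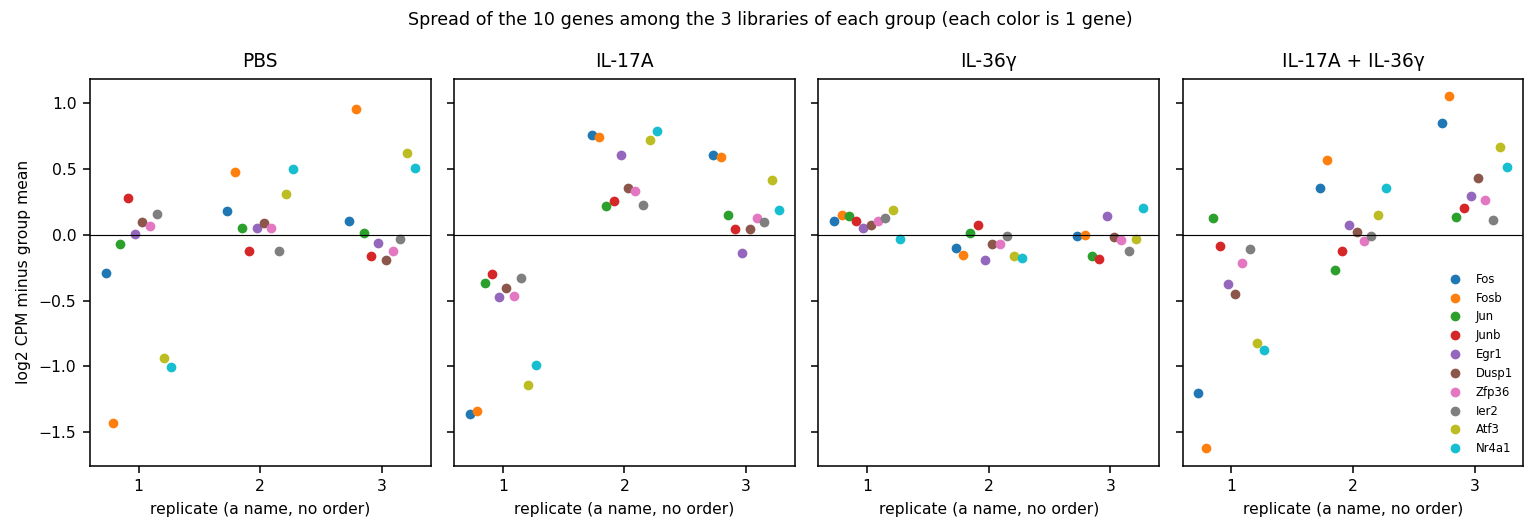
Log2 CPM of each gene minus its group mean (y axis) in the 3 libraries of each group (x axis, replicate numbers without order), with a color per gene. All 10 genes lie below 0 in replicate 1 of IL-17A, and the points of the IL-36γ group lie close to 0, with CVs up to 13.3%.

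Correlations over the 12 libraries describe the same pattern, and they include the differences between groups that the genes were chosen for. The mean Pearson correlation of log2 CPM over the 45 gene combinations was 0.777, from 0.419 for Fosb with Junb to 0.956 for Dusp1 with Ier2, beside 0.003 over all tested genes. With the group means subtracted, which removes the differences between groups, it was 0.665, from 0.13 for Junb with Nr4a1 to 0.973 for Fosb with Atf3. Fos followed the mean of the other 9 genes most closely over the 12 libraries (0.982), and Zfp36 did so with group means subtracted (0.951).

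The genes outside the 10 with the most similar course over the 12 libraries were Tmem168 (r = 0.937), Klf2 (0.934), Marco (0.918), Rgs1 (0.918), Btg2 (0.916), Rnf115 (0.908), Cnot8 (0.899) and Ccn1 (0.895). Klf2, Btg2 and Ccn1 are themselves known as immediate early genes. Rgs1, an inhibitor of G protein signaling in leukocytes, had 3.89 ± 0.873 CPM with PBS and 11.5 ± 1.42 CPM with IL-17A, and was at 9.06 ± 0.124 CPM with IL-36γ and 7.41 ± 2.09 CPM with the combination (SD, n = 3). With group means subtracted, other genes came first, led by Garnl3 (0.953), Lhfpl3 (0.946) and Polr2k-ps (0.942).

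Other immediate early genes were examined as a list of 34, of which all but Egr4 and Npas4 passed the filter. The median log2 fold change of these 32 from PBS was 0.30 with IL-17A, 0.22 with IL-36γ and 0.06 with the combination. After IL-17A 2 of them rose (Ccn1 and Klf2), after IL-36γ Hbegf rose, and after both Hbegf rose, and none fell. Between the combination and IL-17A, and between the combination and IL-36γ, 0 of 32 were called by edgeR and 0 by DESeq2, with 15 and 3 genes at an unadjusted p-value below 0.05. The list was written with results of these data known.

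Klf2, a Krüppel-like factor that quiets endothelium and leukocytes, rose from 8.59 ± 0.88 CPM with PBS to 17.7 ± 2.9 CPM with IL-17A (log2 1.05, SE 0.16, edgeR adjusted p = 0.0109). It had 14.6 ± 0.437 CPM after IL-36γ and 12.2 ± 2.85 CPM after both. Its interaction was -1.30 (SE 0.23, adjusted p = 0.0429), and it was the only one of the 32 called in the interaction by edgeR, where DESeq2 called 9. The call was lost when any one of 9 libraries was left out, all except replicate 1 of PBS, replicate 2 of IL-36γ and replicate 3 of the combination.

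Hbegf, a ligand of the EGF receptor, rose from 10.8 ± 0.96 CPM after PBS to 26.4 ± 3.33 CPM after IL-36γ (log2 1.28, SE 0.20, edgeR adjusted p = 0.00089) and was at 25.5 ± 6.31 CPM after both. Ccn1, a matricellular protein, was at 18 ± 4.11 CPM after PBS and rose to 42.2 ± 18.4 CPM after IL-17A (log2 1.24, SE 0.35, adjusted p = 0.0466). This call was lost under 13 alternatives, among them a fit of the 2 groups alone. Ccn1 was at 26.5 CPM in replicate 1 of IL-17A, and at 62.5 and 37.7 CPM in the other IL-17A libraries.

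Close relatives of the 10 genes are named here for their kinship and outside the rule for named genes. Egr2 had 32.5 ± 1.98 CPM with PBS and 30.2 ± 6.05 CPM with IL-17A (log2 -0.11, SE 0.13, edgeR adjusted p = 0.593), whereas Egr1 had 16.2 ± 0.625 and 51.2 ± 20.4 CPM. Nr4a2 and Nr4a3, the relatives of Nr4a1, had log2 values of 0.40 (SE 0.35, adjusted p = 0.464) and 0.25 (SE 0.39, adjusted p = 0.693) after IL-17A. Fosl2 stayed between 139 and 169 CPM in all libraries. Jund had 69.4 ± 11 CPM after PBS, 95.7 ± 4.2 after IL-17A, 91.6 ± 20 after IL-36γ and 64.5 ± 4.22 with the combination. Fosl1 had 1.61 ± 0.233, 3.06 ± 0.963, 2.84 ± 0.367 and 1.65 ± 0.451 CPM in the same order. The means of Jund and Fosl1 were thus higher after each cytokine alone than after PBS or after both. The interaction of each was called by DESeq2 and not by edgeR.

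In the list of 14 other AP-1 and related bZIP genes, the members that rose were the Batf genes, which partner with Jun proteins in leukocytes. Batf rose from 0.785 ± 0.0825 CPM after PBS to 2.71 ± 0.48 CPM after IL-36γ and 3.17 ± 0.77 CPM after both (log2 2.01, SE 0.33, edgeR adjusted p = 0.000546). Batf2 and Batf3 rose in the same 2 groups, by log2 values of 1.37 (SE 0.42) and 1.66 (SE 0.26) after IL-36γ and 1.49 (SE 0.42) and 1.03 (SE 0.27) after both. The level of Batf3 was higher after IL-36γ than after IL-17A (log2 1.36, SE 0.26, adjusted p = 0.0126). After IL-17A 0 of the 14 were called by edgeR and 1 (Batf) by DESeq2, with 6 at an unadjusted p-value below 0.05. Macrophage markers summed to 735 to 870 CPM after PBS and to 1810 to 2010 CPM after IL-36γ, and their part in the Batf values was not tested.

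The feedback and upstream lists held few called genes. Of 15 MAP kinase phosphatases and ERK feedback inhibitors other than Dusp1, 0 were called against PBS after IL-17A, IL-36γ or both by edgeR and 0 by DESeq2, with 4, 6 and 11 at an unadjusted p-value below 0.05. Spry4, an inhibitor of receptor tyrosine kinase signaling, fell by 1.15 on the log2 scale between IL-17A and the combination, from 4.12 ± 0.98 to 1.85 ± 0.363 CPM (SE 0.22, edgeR adjusted p = 0.00245). Of 19 upstream kinases and factors such as Srf, Elk1 and Creb1, 0 were called in each of these 3 contrasts by edgeR and 0 by DESeq2, with 7, 11 and 11 at an unadjusted p-value below 0.05.

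Among 9 other proteins that act on AU-rich elements or cytokine mRNAs, Zc3h12a, a ribonuclease that degrades such mRNAs, rose in all 3 cytokine groups. It had 20.8 ± 3.59 CPM in the PBS group, 59.9 ± 11 CPM in the IL-17A group, 54.5 ± 6.38 CPM in the IL-36γ group and 76.6 ± 8.02 CPM in the combination (log2 1.88, SE 0.15, edgeR adjusted p = 1.12e-05 for both against PBS). The mean of Zc3h12a was highest after both cytokines, and that of Zfp36 after IL-36γ. Zfp36l1 and Zfp36l2, the paralogs of Zfp36, had 57.7 ± 3.08 and 101 ± 9.81 CPM in PBS mice, 89.2 ± 0.689 and 143 ± 8.15 CPM in IL-17A mice, and 64.1 ± 5.03 and 103 ± 11.4 CPM after both. Their log2 fold changes after IL-17A were 0.63 and 0.50, within the fold change threshold.

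Of 10 mRNAs known as targets of Zfp36, 8 passed the filter, and 4 of these (Cxcl1, Il6, Il10 and Ptgs2) rose after IL-17A. After IL-36γ 4 rose, with the combination 7 rose, and none fell in these contrasts. Cxcl1, a chemokine for neutrophils, had 0.859 ± 0.148 CPM with PBS, 5.08 ± 2.24 CPM with IL-17A, 14.4 ± 4.5 CPM with IL-36γ and 13.6 ± 7.58 CPM with the combination. Il6 had 0.267 ± 0.0328 CPM after PBS and 3.64 ± 2.21 after both (log2 3.75, SE 0.50, edgeR adjusted p = 0.000152). Ccl3, Cxcl2 and Tnf were the others that rose after both, Ccl3 to 5.04 ± 2.0 CPM from 0.686 ± 0.61 CPM and Cxcl2 to 17 ± 9.86 CPM from 1.8 ± 2.78 CPM. Cxcl2 was not called by DESeq2.

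Of 11 genes known as AP-1 targets, Timp1 rose after IL-17A and after IL-36γ, and after both Timp1, Hmox1, Mmp9 and Plaur rose and Mmp10 fell. Timp1, an inhibitor of metalloproteinases, had 8.49 ± 3.4 CPM with PBS, 30.2 ± 14.5 CPM with IL-17A, 68.9 ± 18.8 CPM with IL-36γ and 93.9 ± 9.36 CPM with the combination (log2 3.46, SE 0.36, edgeR adjusted p = 3.55e-05). Hmox1, which degrades heme, had 60.3 ± 12.0 CPM after PBS and 177 ± 15.2 CPM after both. Mmp9, a gelatinase of neutrophils and other cells, had 8.28 ± 2.72 and 21.8 ± 7.08 CPM in these groups. Mmp10, a stromelysin, fell by 2.48 on the log2 scale between IL-17A and the combination, at levels of at most 1.35 CPM in all libraries. The mean of each of Timp1, Hmox1 and Mmp9 was highest after both cytokines, and that of Mmp10 was lowest there (0.159 CPM). The mean of Fos after both was lower than after either alone. Whether the listed targets follow Fos was not tested.

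**Figure D4:**
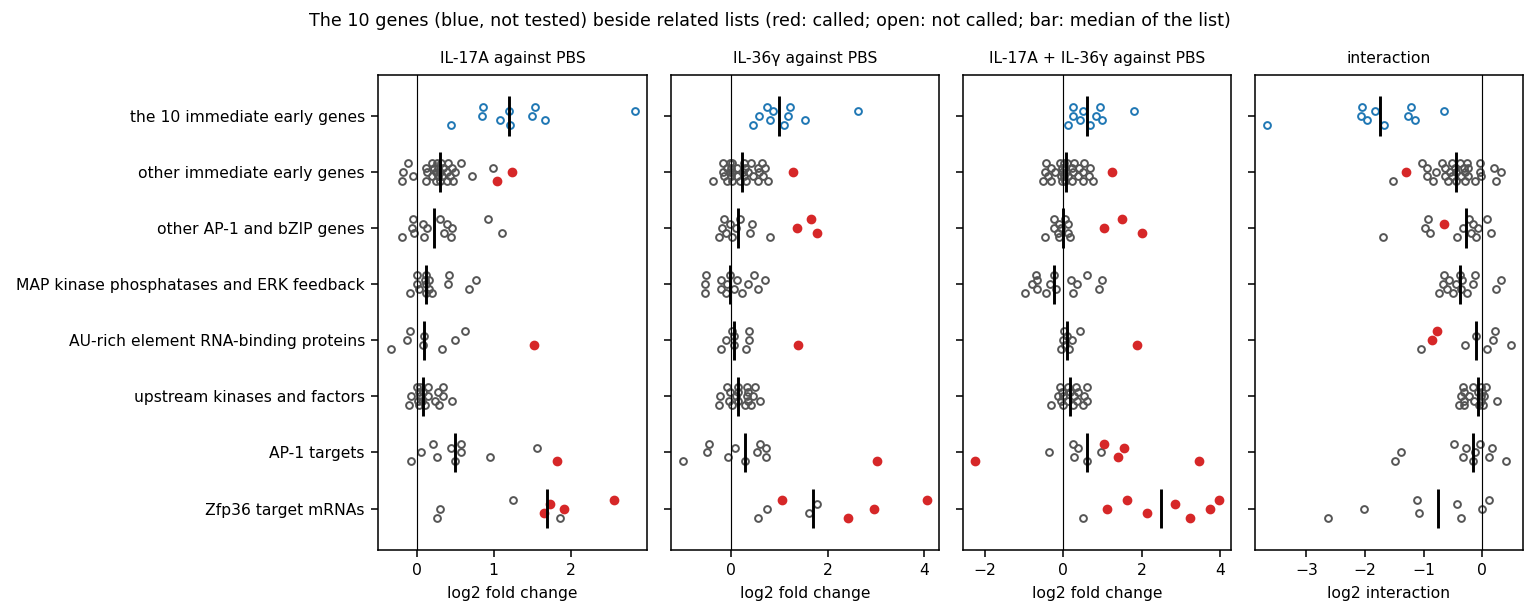
Log2 fold change from PBS in 3 contrasts and the log2 interaction (x axes) of the tested genes of each list (rows), with a bar at the median of the list, filled red points for genes past the thresholds and open points for the others. The 10 immediate early genes (blue, not tested) have medians of 1.20, 0.99, 0.60 and -1.75, and the 32 other immediate early genes 0.30, 0.22, 0.06 and -0.44.

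Lists of other stress responses were counted beside them. Of 11 heat shock genes, 0 were called after IL-17A or IL-36γ by edgeR and 0 by DESeq2, with 6 and 4 at an unadjusted p-value below 0.05, and Hspb1 fell by 1.28 on the log2 scale after both, from 158 ± 4.37 to 64.9 ± 19.1 CPM. Of 10 glucocorticoid-responsive genes, 0 were called after IL-17A or IL-36γ by either tool, with 9 and 9 at an unadjusted p-value below 0.05. After both, Zbtb16, Klf9 and Tsc22d3 fell and Mt2 rose. Tsc22d3 had 172, 432 and 355 CPM in the PBS libraries, lowest in replicate 1, and 155 ± 12.6 CPM after both. Of 9 hypoxia genes, Egln3 rose after IL-36γ, and Egln3, Slc2a1, Ankrd37 and Car9 rose after both, with Slc2a1 from 28.6 ± 2.19 to 70.3 ± 21.4 CPM.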

How the data were processed

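Total RNA of mouse ears was prepared with a stranded kit after ribosomal RNA removal and sequenced on an Illumina instrument. Reads were aligned by the authors to mm10 (STAR 2.5.2b) and assigned to Ensembl genes (featureCounts, Subread 1.5.1), and the deposited table holds raw counts, 1 column per mouse, without normalization. Deposited tables of fold changes and p-values from DESeq2 1.30.0 were used for their column of gene symbols alone. Groups were taken from the sample labels. No libraries of a group were copies of each other, with a chi-square per gene of 7.09 to 64.0.

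Genes were filtered with filterByExpr (minimum count 10), scaled by TMM and tested with the quasi-likelihood test of edgeR 4.0.16 in R 4.3.3, in 1 fit of all 12 libraries with 4 group means and Benjamini-Hochberg adjustment over 19408 genes. Calls required an adjusted p below 0.05 and a log2 fold change of more than 1 in either direction, for the interaction the adjusted p alone. The procedure was tested on simulated data. Alternatives were DESeq2 1.42.0, other scalings, filters and thresholds, fits of the compared groups alone, the replicate number as a block and each library left out.

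The 10 genes and all lists were chosen with earlier results of these data known. Named from each list were the called genes, up to 4 by fold change and 30 in all, and the 8 genes most correlated with the mean z-score of the 10. Plaur, Il10, Ptgs2, Tnf, the named markers and the relatives of the 10 are exceptions to this rule, picked once their values had been seen. Locations are those of GENCODE vM21, and promoters those of RefSeq. A result that involves 1 gene of the lists is not reported here. The qRT-PCR and histology of the study were not analysed here.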

Additional observations from a re-analysis of the deposited data

Results flagged for a closer look

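A differing response to IL-17A with and without IL-36γ, tested as the interaction by edgeR, is given here for 3 genes of the lists outside the 10 chosen genes. Zfp36l1, a paralog of Zfp36, had an interaction of -0.8542 on the log2 scale (SE 0.10, adjusted p = 0.0122), at 57.7 ± 3.08, 89.2 ± 0.689, 75.1 ± 4.71 and 64.1 ± 5.03 CPM (SD, n = 3) in the order PBS, IL-17A, IL-36γ and combination. All 3 libraries of IL-17A lay above all others of the 4 groups. Zfp36l2 had -0.7758 (SE 0.14, adjusted p = 0.0475), with 101 ± 9.81, 143 ± 8.15, 125 ± 10.7 and 103 ± 11.4 CPM in the same order. Klf2 had -1.3048 (SE 0.23, adjusted p = 0.0429), at 8.59 ± 0.88, 17.7 ± 2.9, 14.6 ± 0.437 and 12.2 ± 2.85 CPM. The calls of Zfp36l2 and Klf2 were lost without any one of several libraries, and that of Zfp36l1 without replicate 3 of PBS, replicate 1 or 3 of IL-36γ, or replicate 1 of the combination.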

How the results depend on the processing

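The median log2 fold changes of the 10 genes kept their direction under each alternative in all contrasts but IL-36γ against IL-17A, where the median of -0.16 ranged from -0.41 to 0.07 with 1 library left out. With 1 library left out they ranged from 0.877 to 1.551 after IL-17A, 0.90 to 1.07 after IL-36γ and 0.42 to 0.79 after both, and from -2.057 to -1.316 for the interaction. In these fits with 1 library left out, the number of the 10 genes past the thresholds ranged from 0 to 5 after IL-17A and from 0 to 2 after both. It ranged from 0 to 4 for both against IL-17A, from 0 to 1 for IL-36γ against IL-17A and from 0 to 6 for the interaction. Other alternatives, given below, went beyond some of these ranges. For the other immediate early genes the number ranged, with 1 library left out, from 0 to 2 after IL-17A, from 0 to 1 for both against IL-17A and from 0 to 6 for the interaction. An arm left with 2 libraries was assumed to vary like the others, and these causes were not tested.

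Scaling by library size alone moved the median log2 value of all genes from -0.07 to 0.11 for the interaction, from 0.04 to -0.13 after IL-17A, from -0.03 to -0.17 after both and from -0.015 to -0.16 after IL-36γ, where the median of the 10 genes became 0.83 with 3 called. It left 0 of the 10 and 0 of the other genes in the interaction, and 0 of the other genes after IL-17A. With DESeq2-type size factors the interaction held 3 of the 10, and 1 other gene was called after IL-17A. DESeq2 called 9 other genes in the interaction. Without a filter, 2 of the 10 were called for both against IL-17A and 3 other genes in the interaction. In a fit of the 2 groups alone, 0 of the 10 and 0 of the others were called after IL-17A. At the adjusted p alone, the counts of the 10 were 8 after IL-36γ, 5 after both, 3 for both against IL-17A and 1 for IL-36γ against IL-17A, and those of the others were 5 after IL-17A, 10 after IL-36γ, 12 after both, 10 for both against IL-17A and 2 for IL-36γ against IL-17A. Without replicate 1 of all groups, chosen after seeing the data, the 10 had 9 calls after IL-17A, 2 after both, 3 for both against IL-17A, 1 for IL-36γ against IL-17A and a median interaction of -1.41, and 2 others were called in the interaction.

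Over all genes, same-numbered mice of different groups deviated together in 9 of 18 cases (r above 0.1, from -0.199 to 0.352). The median r was 0.097 for same numbers and -0.05 for different numbers. All 3 same-numbered cases between IL-36γ and the combination were above 0.1 (0.128, 0.188 and 0.24). The labels do not say that a number pairs mice, so the number was used as a block in an alternative alone. Over the 10 genes alone, r was 0.709 to 0.938 for same-numbered mice among PBS, IL-17A and the combination, and -0.853 to 0.37 for those with IL-36γ. Among PBS, IL-17A and the combination, r was also 0.612 to 0.828 for replicate 2 of 1 group with replicate 3 of another. For replicate 1 with replicate 2 or 3 of another of these groups it was -0.943 to -0.694. These r leave out the mean deviation of each mouse over the 10 genes and compare only which genes deviated more. By this measure alone, replicate 1 differed from the other mice of these 3 groups, and numbers 2 and 3 were not told apart. With the replicate number as a block, the median after IL-36γ was 1.143 and that for IL-36γ against IL-17A turned to 0.013. Calls were then 6 of the 10 after IL-17A (Atf3 and Nr4a1 in addition), 2 of the 10 for both against IL-17A, 0 of the 10 for both against IL-36γ, and 8 of the 10 and 4 others in the interaction. With 3 mice per group, low genes such as Mmp10 (1 to 46 counts) are limited by depth.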
